A study of Mus musculus with 6 samples.

Results

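Collagens are the main structural proteins of the bowel wall, and their genes are described here across 6 libraries of mouse terminal ileum, the last stretch of the small intestine. The members are all genes whose symbol is Col, a number, the letter a and a number. There were 44 of them among the 55487 genes of the table. By the structures their products form, 11 are fibrillar, 8 belong to basement membranes, 6 to beaded filaments and 19 to other kinds. The series compared 3 libraries labelled NEC with 3 labelled control, all total RNA of C57BL/6 mice on postnatal day 9. NEC is necrotizing enterocolitis, an inflammatory disease of the immature bowel. The protocol gives gavage of hyperosmolar formula, 10 min of hypoxia at 5% O2 3 times per day for 4 days, and lipopolysaccharide by mouth, at a daily 4 mg/kg, on postnatal days 6 and 7. The same protocol text stands on the control labels, so how controls were fed and handled is not stated. No genotype other than the strain is given. Whether each library is a separate animal is not stated either, so a p-value covers only the spread among these libraries, which may be technical.

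A collagen molecule is made of 3 chains wound into a triple helix. Fibrillar collagens assemble into the tensile fibres of the submucosa and of the villus core. Collagen IV forms the sheet under the epithelium and around vessels and muscle cells, and collagen VI forms fine beaded filaments that link cells to the fibres around them. In the gut these genes are expressed mainly by fibroblasts, smooth muscle and other cells of the wall, and little by absorptive epithelium. The collagen chains are modified and folded in the endoplasmic reticulum, trimmed and cross-linked outside the cell, and broken down by metalloproteinases.

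Levels are in FPKM, in which fragments are scaled for transcript length and library depth, so that genes can be compared within a library. Depth, estimated from the smallest steps of the values, was 15.2 to 18.7 M fragments per library. Among the libraries, NEC 1 stood apart: the 7SL RNA gene Rn7s1 held 42.7% of its total FPKM and 27.3% to 32.2% in the others. Cdx2, a transcription factor of bowel epithelium, was at 51.2 to 69.2 FPKM in the 6 libraries. The ileal bile acid genes Fabp6 and Slc10a2 were at 0 to 10.4 and at 1.01 to 2.30 FPKM. Gata4, a transcription factor of the upper small bowel, was at 7.96, 7.28 and 3.74 FPKM in NEC 1, 2 and 3 and at 0.184, 0.0852 and 0.0622 FPKM in control 1, 2 and 3. These 4 bowel genes were chosen after values of these data had been seen. Whether the Gata4 difference has a part in the collagen results was not tested.

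Several collagen genes lie side by side in the genome, and some share a promoter region. On mm10, Col3a1 (chromosome 1, 45311538 to 45349706) and Col5a2 (45374321 to 45503282) are 24.6 kb apart. Col6a2 (chromosome 10, 76595762 to 76623630) and Col6a1 (76708792 to 76726168) are 85.2 kb apart, and Col18a1 (77052178 to 77166548) follows 326 kb further on. Col6a6, Col6a5 and Col6a4 stand in a row on chromosome 9 with gaps of 27.9 and 28.8 kb. Col4a1 (chromosome 8, 11198423 to 11312826) and Col4a2 (11312805 to 11449287) are read away from each other and their annotated first exons overlap by 22 bases. Col4a6 and Col4a5 (chromosome X, 141475385 to 141689234) also face away from each other, 1.31 kb apart, as do Col4a4 and Col4a3 on chromosome 1, 71 bases apart.

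The promoter letters of 6 genes, and the 22 bases shared by Col4a1 and Col4a2, are shown because these genes include large falls and the 1 gene above all controls in the comparison below, and because neighbours among them differ in it. The sequences are from RefSeq on GRCm38.p6, the same build as mm10. The 6 promoters are cut to the bases that lie outside annotated exons, whereas the 22 bases are the overlap of the first exons of Col4a1 and Col4a2. Each is written 5′ to 3′ on the strand of its gene. Capitals mark matches of CCAAT, of TATAAA and of GGGCGG, which are the letters of the CCAAT box, the TATA box and the Sp1 box. A match on the other strand stands as its reverse complement, and no matches overlap in these stretches.
Col3a1, chr1:45311288-45311537, strand plus: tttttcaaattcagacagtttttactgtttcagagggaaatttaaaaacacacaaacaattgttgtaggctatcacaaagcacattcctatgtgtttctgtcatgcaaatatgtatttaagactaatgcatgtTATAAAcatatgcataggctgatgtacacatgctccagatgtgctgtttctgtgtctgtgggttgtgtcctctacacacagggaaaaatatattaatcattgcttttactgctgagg
Col6a1, chr10:76726169-76726294, strand minus: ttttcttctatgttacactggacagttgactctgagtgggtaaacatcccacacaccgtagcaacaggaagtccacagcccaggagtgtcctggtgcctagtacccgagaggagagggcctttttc
Col6a2, chr10:76623631-76623880, strand minus: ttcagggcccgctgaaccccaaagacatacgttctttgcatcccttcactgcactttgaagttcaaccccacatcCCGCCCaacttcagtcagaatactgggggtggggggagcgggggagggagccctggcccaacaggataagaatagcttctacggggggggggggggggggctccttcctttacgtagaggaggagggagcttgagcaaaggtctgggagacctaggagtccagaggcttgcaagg
Col6a5, chr9:105960644-105960893, strand minus: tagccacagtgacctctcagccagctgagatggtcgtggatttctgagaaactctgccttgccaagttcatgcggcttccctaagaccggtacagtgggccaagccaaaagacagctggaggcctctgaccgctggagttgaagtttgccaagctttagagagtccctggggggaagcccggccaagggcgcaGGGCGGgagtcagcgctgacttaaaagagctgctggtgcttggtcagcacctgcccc
Col18a1, chr10:77166549-77166780, strand minus: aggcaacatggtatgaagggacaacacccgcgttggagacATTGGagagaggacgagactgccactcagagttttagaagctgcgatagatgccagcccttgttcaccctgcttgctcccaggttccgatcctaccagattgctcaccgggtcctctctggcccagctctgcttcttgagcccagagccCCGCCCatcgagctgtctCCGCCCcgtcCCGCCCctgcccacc
Col4a5, chrX:141475169-141475384, strand plus: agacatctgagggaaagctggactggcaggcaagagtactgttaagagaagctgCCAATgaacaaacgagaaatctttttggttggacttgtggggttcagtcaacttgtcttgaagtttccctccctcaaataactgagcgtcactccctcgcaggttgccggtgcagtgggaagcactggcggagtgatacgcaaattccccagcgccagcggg
Col4a1 and Col4a2, chr8:11312805-11312826, read on the Col4a2 strand: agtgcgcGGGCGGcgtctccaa

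Of the 44 collagen genes, 35 had a promoter entry, with 38 windows of 300 bases (250 before and 50 after the start). GGGCGG, on either strand, was in 60.5% of the collagen windows and in 35.7% of all 32851 windows. The collagen windows had a median GC content of 59.8%, against 52.7% in all windows. CCAAT was in 34.2% of the collagen windows and 37.4% of all, and TATAAA in 13.2% and 13.6%. Of the 19 genes with an entry that were lower in NEC, 14 held GGGCGG, and Col3a1 was the 1 that held TATAAA. Col6a1 and Col6a2, neighbours with similar changes, differ in these letters, since the Col6a1 stretch holds none of the 3 motifs. A match is a description of letters and not of a bound site.

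The first comparison asked which collagen genes differed between NEC and control ileum. Most of those with measurable levels were lower in NEC, and beaded filament and major fibrillar genes were lower by more than the main basement membrane genes Col4a1 and Col4a2, a difference between groups of genes that was not tested. A total of 27 genes had a mean of at least 1 FPKM over the 6 libraries and were tested, and 17 were below it. Of the 27, 22 were lower in NEC and 0 were higher at an adjusted p under 0.05 (limma on log2(FPKM + 1), Benjamini-Hochberg over all 15806 genes tested). At an unadjusted p under 0.05, Col18a1 was higher. Among all tested genes, 38.2% differed by the same rule, 30.6% lower and 7.69% higher. The changes of the 22 genes ran from −0.43 to −1.95 on the log2 scale, and 15 of them were −1 or less, a size that 939 of all tested genes (5.94%) passed. The median change over the 27 was −1.32, and over all tested genes −0.26. In bulk tissue, fewer cells of a type and less RNA per cell cannot be told apart. Since 3 of the 27 genes (Col24a1, Col9a2 and Col8a2) reached the minimum through the controls only, these counts describe the tested genes and not all collagens.

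In 23 of the 27 tested genes all 3 NEC libraries were below all 3 controls, as in 47.3% of all tested genes, and in Col18a1 all were above, as in 11.8%. Groups overlapped in the other 3, Col8a1, Col13a1 and Col20a1. NEC 1 was the lowest of the 6 libraries in 24 of the 27. Without NEC 1, 23 genes were lower and the median was −0.99, where 33.5% of all genes were lower. Leaving out control 1, control 2 or control 3 left 9, 9 and 10 of 26 tested collagen genes lower, with 6.73%, 5.90% and 12.7% of all genes lower. TMM scaling, which sets a typical gene to no change, moved the median of all genes from −0.26 to 0.00 and turned the split of all calls from 1215 higher and 4829 lower to 2638 higher and 2252 lower. Quantile normalization gave 2202 higher and 2387 lower. After TMM scaling 17 collagen genes were lower and 1, Col18a1, was higher, against 14.2% and 16.7% of all genes. After quantile normalization, with 15.1% of all genes lower and 13.9% higher, 20 were lower and 2, Col18a1 and Col20a1, were higher. In all 14 settings run, or all that tested them, 10 genes stayed lower at this threshold: Col6a1, Col6a2, Col6a4, Col6a5, Col4a5, Col24a1, Col8a2, Col9a2, Col16a1 and Col23a1. Of these, Col8a2 was tested in only 10 settings. It was below the minimum whenever a control was left out, so those checks do not cover it. Col24a1, Col8a2 and Col9a2 reached the minimum through the controls only.

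**Figure D1:**
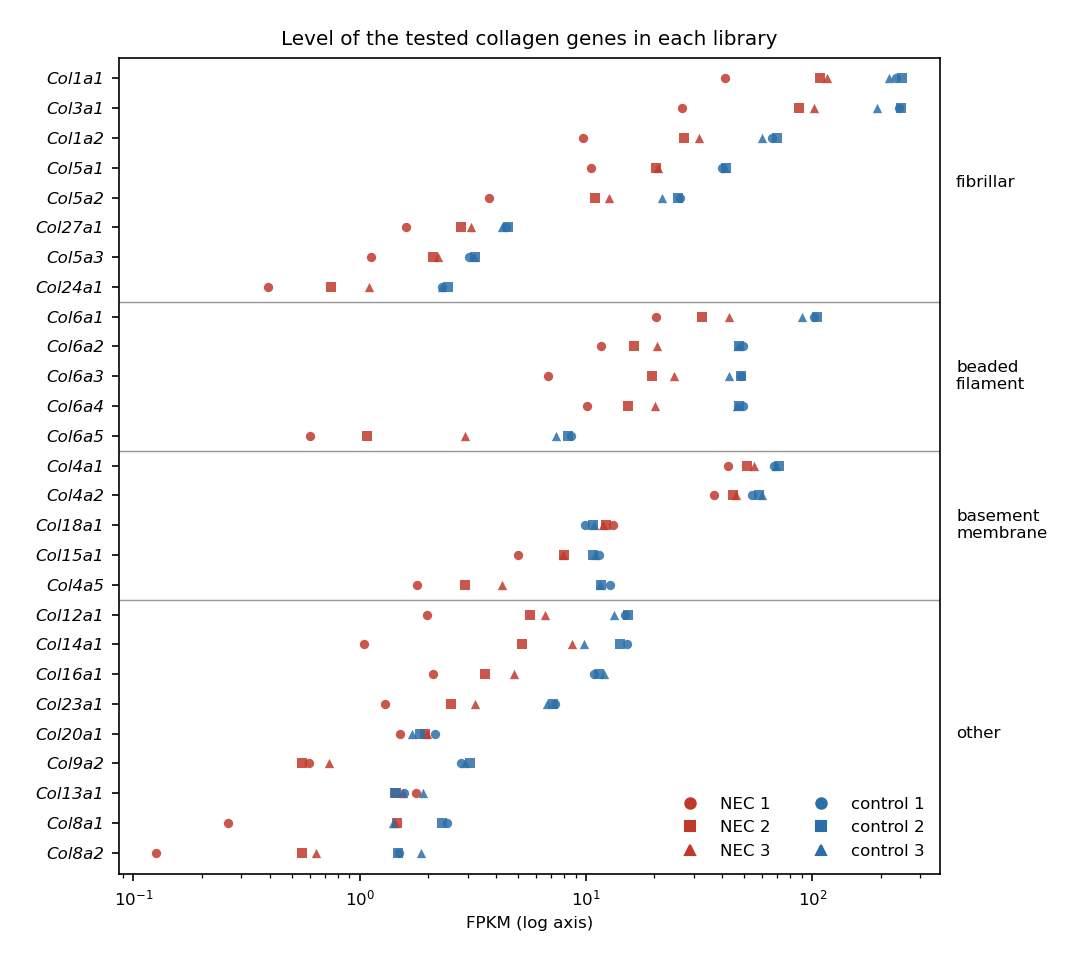
FPKM (log axis) of the 27 tested collagen genes in each of the 6 libraries, by structural group and, within a group, by mean level. NEC libraries are red, controls blue, and the symbol gives the replicate. In 23 genes the red points lie wholly to the left of the blue ones. NEC 1 is the leftmost point in 24.

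Fibrillar collagens form the thick fibres of the wall. All 8 tested members fell in NEC, with a median log2 change of −1.37, and the 5 most abundant fell by 1.26 to 1.85. Col1a1, the main chain of collagen I (chromosome 11, 94936224 to 94953042), was at 41.2, 108 and 116 FPKM in NEC 1, 2 and 3 and at 234, 249.6 and 218 FPKM in control 1, 2 and 3. All NEC libraries were below all controls, with NEC 1 far below NEC 2 and 3. The means were 88.3 ± 41.0 and 234 ± 16.0 FPKM (SD, n = 3 each), and the log2 change was −1.53 (SE 0.38, adjusted p = 0.0233). Col1a2, the partner chain of collagen I (chromosome 6, 4504814 to 4541544), was at 9.74, 27.0 and 31.4 FPKM in NEC and at 66.2, 69.7 and 60.2 FPKM in control. NEC 1 was again the lowest, and the log2 change was −1.63 (SE 0.40, adjusted p = 0.0222).

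Col3a1 encodes the collagen III chain, which is laid into fibres with collagen I and is typical of soft, stretchable tissue. Its level was 26.5, 86.9 and 102 FPKM in NEC 1, 2 and 3 and 241, 247 and 193 FPKM in control 1, 2 and 3. The change of −1.85 (SE 0.48, adjusted p = 0.0262) was the largest fall among the tested fibrillar genes on this scale, with the groups apart and NEC 1 lowest. Col5a1 and Col5a2 encode chains of collagen V, which starts fibres and limits their width. Col5a1 was at 10.5, 20.3 and 20.8 FPKM in NEC and at 39.9, 41.7 and 41.3 FPKM in control, a log2 change of −1.26 (SE 0.25, adjusted p = 0.0133). Col5a2, which lies beside Col3a1, was at 3.71, 10.9 and 12.6 FPKM in NEC and at 25.9, 25.4 and 21.6 FPKM in control, a log2 change of −1.47 (SE 0.38, adjusted p = 0.0269). Neither gene's groups overlapped, and NEC 1 was the lowest for both.

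The less abundant fibrillar genes fell by less on this scale, which compresses changes near 1 FPKM. Col5a3, a further collagen V chain, was at 1.12, 2.10 and 2.22 FPKM in NEC and at 3.05, 3.22 and 3.21 FPKM in control (log2 change −0.59, SE 0.18, adjusted p = 0.0388). Col27a1, a collagen of thin fibres known from cartilage, was at 1.60, 2.79 and 3.09 FPKM in NEC and at 4.42, 4.52 and 4.24 FPKM in control (log2 change −0.65, SE 0.18, adjusted p = 0.0309). Both were lower in every NEC library than in any control, and both missed the threshold after TMM scaling (adjusted p = 0.102 and 0.0735) and after quantile normalization (0.169 and 0.0841). Both also missed it with the replicate block (0.0537 and 0.0503), with no filter, without NEC 2 and without any 1 control. Col24a1, a minor fibrillar collagen, was at 0.392, 0.748 and 1.10 FPKM in NEC and at 2.32, 2.46 and 2.30 FPKM in control. It fell by 0.96 (SE 0.16, adjusted p = 0.00985), and the control mean was 3.17 times the NEC mean in FPKM, close to the 3.16 times of Col3a1. The 3 fibrillar genes below the minimum are best known from cartilage. Col2a1 was at 0 to 0.0246 FPKM and Col11a2 at 0.246 to 0.452 FPKM with overlapping groups, and Col11a1 was at 0.107 to 0.229 FPKM in NEC and 0.306 to 0.381 FPKM in control.

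Without NEC 1 all 8 tested fibrillar genes remained lower, with a median of −0.98, and Col1a1 and Col3a1 changed by −1.06 and −1.25. Without control 1, 2 or 3, the number lower was 1, 1 and 2. For Col1a1, Col1a2 and Col3a1 the adjusted p then rose to at most 0.0792, 0.0764 and 0.0849. Col5a2 missed the threshold without any 1 control, and Col5a1 without control 1 or 2. With no filter, Col3a1 and Col5a2 also missed it.

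Collagen VI filaments are built from an α1, an α2 and a further chain, which can be α3 or one of the related chains α4, α5 and α6. All 5 tested genes fell, with a median of −1.64. Col6a1 (ENSMUSG00000001119) was at 20.4, 32.5 and 42.9 FPKM in NEC 1, 2 and 3 and at 102, 105 and 90.1 FPKM in control 1, 2 and 3. The highest NEC library was far below the lowest control. The means were 31.9 ± 11.3 and 99.2 ± 7.98 FPKM (SD, n = 3 each), and the log2 change was −1.66 (SE 0.25, adjusted p = 0.00769). Col6a2 (ENSMUSG00000020241) was at 11.6, 16.3 and 20.6 FPKM in NEC and at 49.3, 47.5 and 47.0 FPKM in control. Its means were 16.2 ± 4.55 and 47.9 ± 1.23 FPKM (SD, n = 3 each). It fell by 1.54 (SE 0.19, adjusted p = 0.00512), close to its neighbour and partner Col6a1.

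Among the chains that complete the molecule, Col6a3 is the most widespread. Its level was 6.80, 19.6 and 24.4 FPKM in NEC and 48.5, 48.2 and 43.0 FPKM in control, a log2 change of −1.57 (SE 0.41, adjusted p = 0.0275). NEC 1 was again far below NEC 2 and 3. Col6a4 was at 10.1, 15.3 and 20.1 FPKM in NEC and at 49.2, 47.3 and 46.5 FPKM in control, a log2 change of −1.64 (SE 0.22, adjusted p = 0.00622). Its level was about that of Col6a3 in the controls, and its NEC libraries lay closer together. Col6a5 was at 0.606, 1.08 and 2.91 FPKM in NEC and at 8.54, 8.36 and 7.39 FPKM in control. It had the largest fall of the tested collagen genes, −1.95 (SE 0.31, adjusted p = 0.00864), and its control mean was 5.29 times its NEC mean. Col6a6, next to it on chromosome 9, was below the minimum, at 0.0462, 0.0753 and 0.0837 FPKM in NEC and at 0.731, 0.738 and 0.464 FPKM in control, with no overlap. Without NEC 1 all 5 tested genes stayed lower, with a median of −1.38, and all 5 were also lower after TMM scaling (median −1.31). Leaving out any 1 control left 4 of 5, the exception being Col6a3 (adjusted p at most 0.0854). Col6a3 also missed the threshold with no filter.

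**Figure D2:**
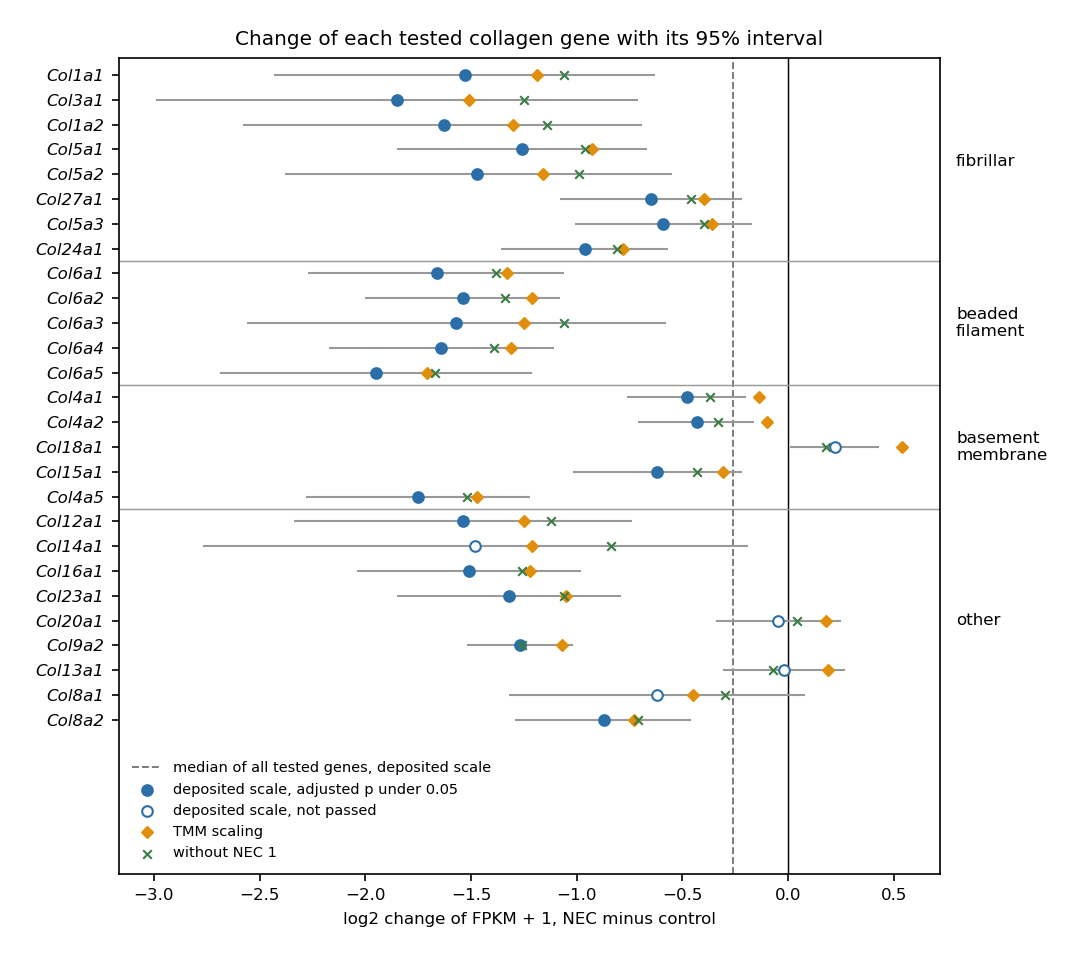
Log2 change of FPKM + 1, NEC minus control, of the 27 tested collagen genes, with 95% intervals (bars). Filled circles passed the adjusted p threshold on the deposited scale and open circles did not. Diamonds show the value after TMM scaling and crosses the value without NEC 1, and the dashed line marks −0.26, the median of all tested genes. Col6a5 lies farthest to the left at −1.95, and Col18a1 lies to the right of 0 in all 3 readings.

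Apart from 1 gene, the tested basement membrane collagens changed less than the major fibrillar and the tested beaded filament genes. Of 5 tested genes, 4 fell, with a median over the 5 of −0.48. Col4a1 and Col4a2 encode the 2 chains of the common collagen IV molecule. Col4a1 was at 42.3, 51.5 and 55.2 FPKM in NEC 1, 2 and 3 and at 67.7, 70.9 and 69.3 FPKM in control 1, 2 and 3. Col4a2 was at 36.6, 44.6 and 45.9 FPKM in NEC and at 54.2, 58.2 and 59.6 FPKM in control. Both sets of NEC libraries were below the controls, by a smaller margin than for the fibrillar genes. The log2 changes were −0.48 (SE 0.12, adjusted p = 0.0227) and −0.43 (SE 0.11, adjusted p = 0.0273). After TMM scaling they were −0.14 (adjusted p = 0.182) and −0.10 (adjusted p = 0.379). Without control 1, 2 or 3 both also missed the threshold, and Col4a2 missed it without NEC 2. The 22 bases printed above are part of both genes as annotated. The strand setting of the counting is not given in the sources used here, so reads over them cannot be assigned to 1 gene.

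Col4a5 encodes a chain of the other collagen IV networks, which join α5 with α3 and α4 or with α6. It was at 1.80, 2.92 and 4.25 FPKM in NEC and at 12.8, 11.7 and 11.5 FPKM in control. The groups were far apart, and the means were 2.99 ± 1.23 and 12.0 ± 0.735 FPKM (SD, n = 3 each). It fell by 1.75 (SE 0.22, adjusted p = 0.00525), and was lower in all 14 settings, by 1.47 to 2.05. The other chains of those networks were below the minimum: Col4a3 was at 0.0651 to 0.128 FPKM in NEC and 0.294 to 0.416 FPKM in control, Col4a4 at 0.0379 to 0.136 and 0.217 to 0.492 FPKM, and Col4a6 at 0.0216 to 0.0521 and 0.187 to 0.330 FPKM. In all 3 the NEC libraries lay below the controls. Relative to Col4a1, the Col4a5 level was 0.0426, 0.0566 and 0.0771 in NEC and 0.189, 0.165 and 0.165 in control, a ratio chosen after the values had been seen and not tested.

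Col15a1 and Col18a1 encode the 2 multiplexins, collagens with sugar side chains in or next to basement membranes, whose ends release restin and endostatin. Col15a1 was at 5.02, 7.95 and 7.89 FPKM in NEC and at 11.4, 10.7 and 10.9 FPKM in control (log2 change −0.62, SE 0.17, adjusted p = 0.0296). It missed the threshold after TMM scaling (adjusted p = 0.0886), with no filter, with the replicate block (0.0523) and without any 1 control (at most 0.0959). Col18a1 was at 13.1, 12.2 and 11.9 FPKM in NEC and at 9.90, 10.7 and 10.8 FPKM in control. All 3 NEC libraries were above all 3 controls, and NEC 1, the lowest library for most collagens, was the highest here. The log2 change was 0.22 (95% interval 0.01 to 0.43, adjusted p = 0.0902) and did not pass. It was 0.54 after TMM scaling (adjusted p = 0.0215) and 0.33 after quantile normalization (adjusted p = 0.0444). Its neighbour Col6a1 fell by 1.66.

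Without NEC 1, 4 of 5 tested basement membrane genes remained lower (median −0.37). After TMM scaling 1, Col4a5, was lower and 1, Col18a1, higher (median −0.14). Without control 1, 2 or 3 it was 1 lower in each case.

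The other collagens include those that coat fibres (the FACIT group), short network formers and chains that span the cell membrane. Of 9 tested genes, 5 fell, with a median of −1.27, and 4 did not pass. Col12a1 and Col14a1 encode FACIT collagens that bind to collagen I fibres. Col12a1 was at 1.99, 5.64 and 6.57 FPKM in NEC 1, 2 and 3 and at 14.9, 15.3 and 13.3 FPKM in control 1, 2 and 3, and fell by 1.54 (SE 0.34, adjusted p = 0.0174). Without a control its adjusted p was at most 0.0658. Col14a1 was at 1.04, 5.19 and 8.68 FPKM in NEC and at 15.2, 14.1 and 9.84 FPKM in control. Its groups did not overlap, but NEC 3 came near control 3, and the change of −1.48 (95% interval −2.77 to −0.19, adjusted p = 0.0685) did not pass. Without NEC 1 it was −0.84 (adjusted p = 0.0443).

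Col16a1, a FACIT collagen linked to small fibres and to cell contacts, was at 2.10, 3.57 and 4.82 FPKM in NEC and at 10.8, 11.4 and 12.0 FPKM in control. It fell by 1.51 (SE 0.22, adjusted p = 0.00731) with the groups well apart. Col9a2, a chain of the FACIT collagen IX known from cartilage, was at 0.599, 0.558 and 0.734 FPKM in NEC and at 2.81, 3.06 and 2.91 FPKM in control. Here NEC 1 was not the lowest library, and the spread within each group was small. The control mean was 4.64 times the NEC mean, and the change of −1.27 (SE 0.11, adjusted p = 0.00167) had the smallest adjusted p of the collagen genes. Its partner chains were below the minimum, with Col9a1 at 0.0672 to 0.146 FPKM in NEC and 0.281 to 0.586 FPKM in control and Col9a3 at 0.0475 to 0.316 and 0.125 to 0.245 FPKM. The cartilage genes Acan and Comp were at most 0.0293 and 0.173 FPKM in any library. Of the same marker list Hapln1, a link protein of cartilage matrix, was at 0.0383, 0.0624 and 0.139 FPKM in NEC and at 3.44, 4.21 and 3.44 FPKM in control (log2 change −2.12, adjusted p = 5.85e-04), reaching the minimum through the controls only. Sox9, a transcription factor of cartilage and of gut epithelium, fell by 1.04 (adjusted p = 0.00506). Their part in the Col9a2 result was not tested.

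Col23a1, which spans the cell membrane, was at 1.29, 2.53 and 3.22 FPKM in NEC and at 7.32, 7.18 and 6.71 FPKM in control, and fell by 1.32 (SE 0.22, adjusted p = 0.00965). Col8a2, a short network former of vessel walls and eye membranes, was at 0.126, 0.554 and 0.642 FPKM in NEC and at 1.49, 1.48 and 1.86 FPKM in control, and fell by 0.87 (SE 0.17, adjusted p = 0.0139). The groups of both were apart. The partner of Col8a2, Col8a1, was at 0.261, 1.46 and 1.43 FPKM in NEC and at 2.42, 2.32 and 1.40 FPKM in control. NEC 2 and 3 overlapped control 3, and the change of −0.62 had a 95% interval of −1.32 to 0.08 (adjusted p = 0.133). It was −0.30 without NEC 1 and −0.25 after quantile normalization.

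For the membrane-spanning Col13a1, values were 1.78, 1.44 and 1.56 FPKM in NEC and 1.57, 1.43 and 1.91 FPKM in control. The FACIT gene Col20a1 was at 1.50, 1.95 and 1.98 FPKM in NEC and at 2.14, 1.84 and 1.71 FPKM in control. Their groups overlapped, with changes of −0.02 (95% interval −0.31 to 0.27, adjusted p = 0.898) and −0.05 (−0.34 to 0.25, adjusted p = 0.787). After TMM scaling the signs turned, to 0.19 and 0.18, and after quantile normalization Col20a1 was higher (0.32, adjusted p = 0.0417).

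The remaining 8 genes of this kind were below the minimum. Col17a1, of the contacts that fix epithelium to its base, was at 0.0396 to 0.0650 FPKM in NEC and 0.200 to 0.283 FPKM in control. Col22a1, of tissue junctions, was at 0.137 to 0.195 and 0.371 to 0.396 FPKM. Col26a1 was at 0.0933 to 0.110 and 0.372 to 0.447 FPKM, Col25a1 at 0.116 to 0.189 and 0.251 to 0.400 FPKM, and Col10a1, of growing bone ends, at 0 to 0.0171 and 0.0394 to 0.0840 FPKM. In these 5 genes the NEC libraries were all below the controls. The groups overlapped for Col7a1, which forms anchoring fibrils, at 0.388 to 0.501 and 0.385 to 0.502 FPKM. They also overlapped for Col28a1, at 0.467 to 0.925 and 0.740 to 0.940 FPKM, and for Col19a1, at 0 to 0.0211 and 0 to 0.0472 FPKM. Over all 17 genes below the minimum, the NEC libraries were below the controls in 11 and the groups overlapped in 6, with no test. Among all genes above 0 but below the minimum, the NEC libraries were below the controls in 26.6%.

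Among the other collagens, 6 of 9 tested genes were lower without NEC 1 (median −0.84) and 3 of 8 without control 1, control 2 or control 3.

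The second comparison was of the make-up of the collagen level. Summed over the 44 genes, collagen was at 256, 488 and 558 FPKM in NEC 1, 2 and 3 and at 1095, 1126 and 997 FPKM in control 1, 2 and 3. As a percentage of the control mean the NEC sums were 23.9%, 45.5% and 52.0%. The basement membrane group made up 38.6%, 24.5% and 22.5% of the sum in NEC and 14.3%, 14.5% and 16.4% in control. The beaded filament group made up 19.3%, 17.4% and 19.9% in NEC and 23.6%, 22.8% and 23.5% in control. Both differences held in every library, with the first largest in NEC 1. The fibrillar group made up 37.2%, 53.0% and 52.0% in NEC and 56.4%, 57.2% and 54.6% in control, so most of its spread lay in NEC 1. The other genes made up 4.88% to 5.62% in NEC and 5.46% to 5.66% in control. These shares are a description and were not tested, and the tests above are of single genes.

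**Figure D3:**
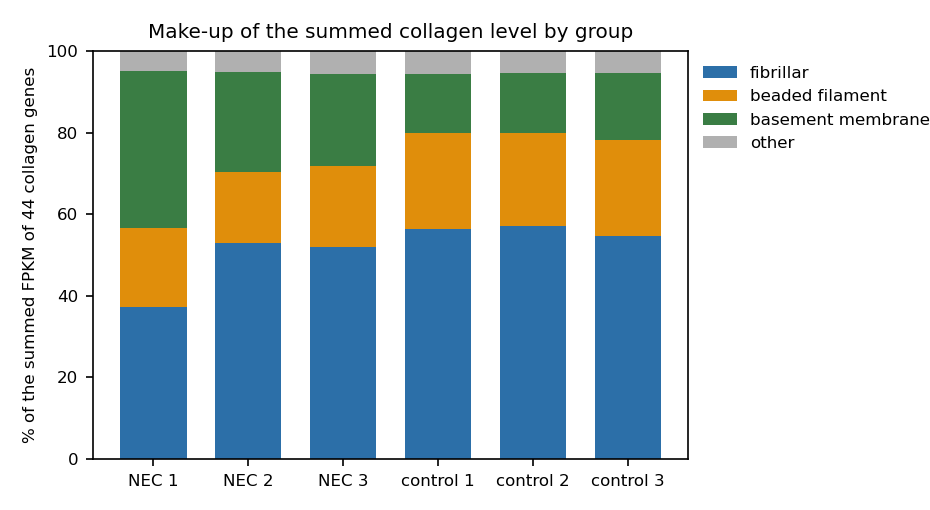
Share (%) of the summed FPKM of the 44 collagen genes held by each structural group, in each library. The basement membrane share runs from 22.5% to 38.6% in the NEC libraries and from 14.3% to 16.4% in the controls.

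The third comparison was of chains that assemble together or lie in the same fibres. In each library 6 ratios of FPKM were formed and compared by two-sided exact permutation tests, which with 3 libraries against 3 cannot go below p = 0.1. None passed after Benjamini-Hochberg adjustment over the 6. Col1a1 to Col1a2 was 4.23, 3.99 and 3.70 in NEC 1, 2 and 3 and 3.53, 3.58 and 3.62 in control 1, 2 and 3. All NEC ratios were above all controls, by 0.15 on the log2 scale (exact permutation p = 0.1, adjusted 0.300). Col3a1 to Col1a1 was 0.643, 0.808 and 0.879 in NEC and 1.03, 0.988 and 0.888 in control. It was lower in every NEC library, by a log2 difference of −0.33 (exact permutation p = 0.1, adjusted 0.300), and NEC 3 nearly met control 3. Without NEC 1 the difference was −0.20.

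For the collagen IV pair, Col4a1 to Col4a2 was 1.16, 1.15 and 1.20 in NEC and 1.25, 1.22 and 1.16 in control (log2 difference −0.05, exact permutation p = 0.200, adjusted 0.400). For the collagen VI pair, Col6a1 to Col6a2 was 1.76, 1.99 and 2.08 in NEC and 2.08, 2.21 and 1.92 in control (log2 difference −0.09, exact permutation p = 0.500, adjusted 0.6). The groups of both overlapped, and the genes of each pair kept a ratio within a narrow band while their levels differed. Col5a1 to Col5a2 was 2.82 in NEC 1, and 1.54 to 1.91 in the other 5 libraries (log2 difference 0.28, exact permutation p = 0.400, adjusted 0.6). Without NEC 1 the difference was 0.06. Col6a3 to Col6a1 was 0.334 in NEC 1, 0.604 and 0.568 in NEC 2 and 3, and 0.459 to 0.477 in control. NEC 1 lay below the controls and NEC 2 and 3 above them, so the log2 difference of 0.05 (exact permutation p = 1, adjusted 1) was 0.32 without NEC 1, −0.11 without NEC 2 and −0.07 without NEC 3.

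**Figure D4:**
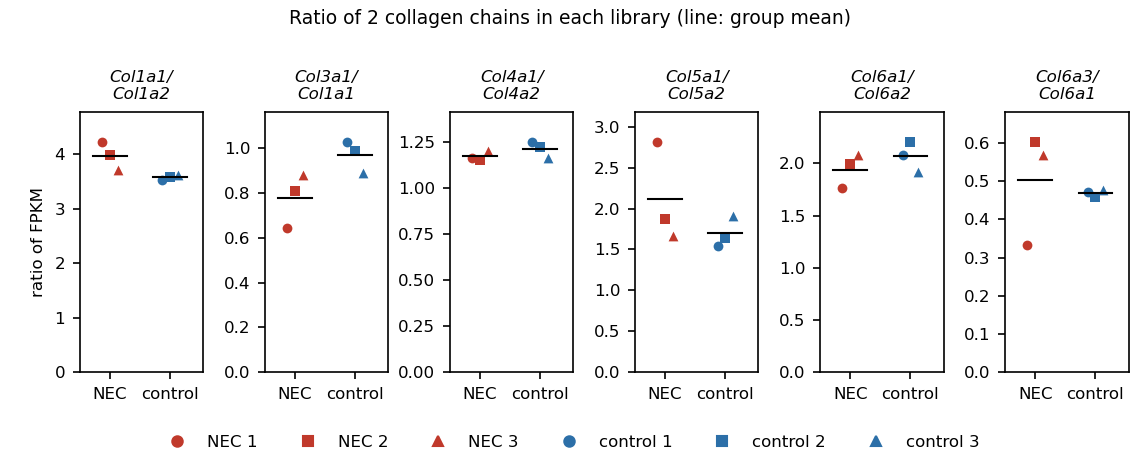
Ratio of the FPKM of 2 collagen chains in each library (points) with the group mean (line), for 6 pairs, each on its own axis from 0. Col1a1 to Col1a2 and Col3a1 to Col1a1 show no overlap between groups, and NEC 1 lies away from the other libraries for Col5a1 to Col5a2 and Col6a3 to Col6a1.

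Genes that make, bind, sense and break down collagen or the matrix around it were then read from the same fit, in 6 lists. Of the genes named from them, Adamts3 and Fap reached the minimum of 1 FPKM through the controls only, and Mmp10 through NEC only. Over all tested genes, 30.6% were lower and 7.69% higher, and after TMM scaling 14.2% and 16.7%. Without NEC 1, 33.5% of all genes were lower, and without control 1, 2 and 3, 6.73%, 5.90% and 12.7%. Of 26 tested genes for chain assembly and cross-linking, 18 fell and 2 rose (median −0.70). The 2 that rose act inside the cell, as do several of the 18 that fell, among them P4ha1, Plod1 and Plod2. P4hb, a subunit of the prolyl hydroxylase that is also a general folding enzyme, was at 739, 743 and 607 FPKM in NEC 1, 2 and 3 and at 345, 332 and 354 FPKM in control 1, 2 and 3 (log2 change 1.01, SE 0.13, adjusted p = 0.00508). Sec23a, a coat protein of vesicles that leave the endoplasmic reticulum, rose by 0.67 (adjusted p = 0.0111), but missed the threshold without control 2. Lysyl hydroxylase Plod2, which prepares cross-links, was at 1.57, 2.36 and 2.87 FPKM in NEC and at 5.60, 5.81 and 5.80 FPKM in control (log2 change −1.06, adjusted p = 0.00764). Loxl2, a cross-linking enzyme, was at 10.2, 16.3 and 16.5 FPKM in NEC and at 36.1, 32.1 and 31.8 FPKM in control (log2 change −1.19, adjusted p = 0.0082). Adamts3, a protease that trims procollagen ends, fell by 0.70 (adjusted p = 0.00684), but missed the threshold after quantile normalization (0.0848). Groups did not overlap for any of these 5. The counts rising and falling were 2 and 20 without NEC 1, 2 and 12 after TMM scaling, and 2 and 5, 1 and 3, and 2 and 8 without control 1, 2 and 3.

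Of 14 tested breakdown enzymes and inhibitors, 9 fell and 3 rose (median −1.02). Timp3, a matrix-bound inhibitor of metalloproteinases, was at 8.67, 8.05 and 10.9 FPKM in NEC and at 30.3, 29.9 and 28.8 FPKM in control (log2 change −1.60, SE 0.12, adjusted p = 0.00132). Mmp14, a membrane-bound collagenase, was at 4.27, 4.57 and 5.69 FPKM in NEC and at 10.5, 10.3 and 9.84 FPKM in control (log2 change −0.95, adjusted p = 0.00502). The groups of both were well apart. Fap, a fibroblast protease, fell by 1.15 (adjusted p = 0.00529). Against these, Mmp15, another membrane-bound metalloproteinase, was at 37.6, 43.2 and 30.3 FPKM in NEC and at 11.8, 12.0 and 12.8 FPKM in control (log2 change 1.51, adjusted p = 0.00214). Mmp10, stromelysin 2, was at 18.0, 4.73 and 6.66 FPKM in NEC and at 1.12, 0.839 and 0.681 FPKM in control (log2 change 2.33, adjusted p = 0.0108). NEC 1 was the highest library for Mmp10. Pepd, which splits the last proline dipeptides of collagen, rose by 0.47 (adjusted p = 0.0207), but missed the threshold without NEC 2, control 1 or control 2. The counts rising and falling were 4 and 9 after TMM scaling, 4 and 9 without NEC 1, 2 and 6 without control 1 or 2, and 3 and 8 without control 3.

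Of 12 tested receptors for collagen or other matrix, 7 fell and 1 rose (median −0.63). Itga2, the α2 chain of a collagen-binding integrin, was at 8.67, 5.98 and 7.61 FPKM in NEC and at 13.9, 14.1 and 13.1 FPKM in control (log2 change −0.82, adjusted p = 0.00922), but missed the threshold after TMM scaling (0.0683). Antxr1, a receptor for collagen chains, fell by 0.99 (adjusted p = 0.00655), and Adgrg1, an adhesion receptor for collagen III, by 0.73 (adjusted p = 0.01). The gene that rose, Itgb4, encodes an integrin chain of epithelial contacts with the basement membrane. It was at 39.3, 40.7 and 39.2 FPKM in NEC and at 23.0, 23.3 and 25.3 FPKM in control (log2 change 0.71, SE 0.08, adjusted p = 0.00461). The number falling was 8 without NEC 1, 4 after TMM scaling, and 3, 3 and 4 without control 1, 2 and 3, while Itgb4 was higher in all 14 settings.

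The next list holds proteins that sit on or beside the fibres. Of 26 tested fibril-binding proteoglycans and glycoproteins, 18 fell (median −1.23). Vcan, a large proteoglycan, was at 0.836, 1.21 and 1.31 FPKM in NEC and at 3.39, 3.93 and 2.90 FPKM in control (log2 change −1.06, adjusted p = 0.00627). Fbn2, a fibrillin of early microfibrils, was at 2.22, 5.98 and 6.74 FPKM in NEC and at 16.0, 16.3 and 15.3 FPKM in control (log2 change −1.59, adjusted p = 0.0142). All NEC libraries were below all controls for both. Emilin1, of elastic fibres, fell by 1.28 (adjusted p = 0.0169) and Efemp2, which helps assemble them, by 0.77 (adjusted p = 0.0107). Emilin1 missed the threshold without any 1 control, Fbn2 without control 1 or 2, and Efemp2 without control 2. Without NEC 1, 21 fell. After TMM scaling the number was 12, without NEC 2 it was 8, where 18.7% of all genes fell, and without control 1, 2 and 3 it was 2, 1 and 4.

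Of 16 tested basement membrane partners, 12 fell and 1 rose (median −0.90). Lama3, a laminin chain of epithelial basement membrane, was at 13.1, 10.7 and 12.7 FPKM in NEC and at 27.4, 31.2 and 28.1 FPKM in control (log2 change −1.18, adjusted p = 0.00224). Lamb1, a laminin chain shared by many tissues, was at 9.88, 13.4 and 15.6 FPKM in NEC and at 33.1, 32.6 and 29.7 FPKM in control (log2 change −1.25, adjusted p = 0.00549). The fall of both was larger than that of Col4a1 and Col4a2 on the same scale, a difference that was not tested. Nid2, which bridges laminin and collagen IV, fell by 1.04 (adjusted p = 0.0128). Lama1, a laminin chain of early basement membranes, was at 2.53, 2.83 and 2.76 FPKM in NEC and at 1.39, 1.58 and 1.44 FPKM in control and rose by 0.59 (adjusted p = 0.00998). Nid2 missed the threshold without control 2, and Lama1 without control 1. The number falling was 12 without NEC 1, 6 after TMM scaling, 8 without NEC 2, and 3, 2 and 5 without control 1, 2 and 3.

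Of 17 tested regulators of collagen genes, 10 fell (median −0.50). Tcf21, a transcription factor of fibroblast precursors, was at 2.05, 3.21 and 5.54 FPKM in NEC and at 14.2, 13.9 and 13.5 FPKM in control (log2 change −1.76, SE 0.26, adjusted p = 0.00725). Ltbp3, which holds latent TGF-β, fell by 1.21 (adjusted p = 0.00982). Pdgfa, a growth factor for fibroblasts, fell by 0.83 (adjusted p = 0.00882), and Ccn2, a matrix protein induced by TGF-β, by 0.80 (adjusted p = 0.0109). Ccn2 missed the threshold without control 2. The number falling was 10 without NEC 1, 5 after TMM scaling, 6 without NEC 2, and 4, 3 and 4 without control 1, 2 and 3.

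Marker lists of the cells of the wall were read in the same libraries. Over all tested genes, 30.6% were lower and 7.69% higher, and after TMM scaling 14.2% and 16.7%. Summed fibroblast markers were at 23.3%, 47.0% and 57.9% of the control mean in NEC 1, 2 and 3, with the controls at 75.4% to 113%. The fibrillar collagen sum was at 15.8%, 43.0% and 48.1% in the same order. Of 11 tested fibroblast markers 7 fell, also without NEC 1, and 3 fell after TMM scaling or without NEC 2. Without control 1, 2 and 3 it was 0, 0 and 2. The list shares Dcn, Lum, Dpt, Mfap5 and Fbln1 with the fibril-binding list. The defining marker Pdgfra was at 9.13, 10.6 and 13.7 FPKM in NEC and at 16.8, 17.8 and 16.5 FPKM in control (log2 change −0.59, adjusted p = 0.0235), and Pdgfrb at 7.05, 5.97 and 6.74 FPKM and at 10.1, 9.84 and 9.64 FPKM (log2 change −0.52, adjusted p = 0.0112). Of 10 markers of subepithelial and villus fibroblasts 8 fell, and their sum was at 37.9% to 56.2% of the control mean. F3 of that list was at 1.62, 2.77 and 3.09 FPKM in NEC and at 9.04, 7.73 and 6.36 FPKM in control (adjusted p = 0.00768), while Sox6 did not pass (adjusted p = 0.319).

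Smooth muscle markers set NEC 1 apart. Their sum was at 17.3% of the control mean in NEC 1 and at 79.4% and 79.6% in NEC 2 and 3, with the controls at 91.1% to 108%. Acta2, smooth muscle actin, was at 38.4, 197 and 219 FPKM in NEC and at 328, 355 and 285 FPKM in control (adjusted p = 0.112), and Myh11, smooth muscle myosin, at 36.0, 126 and 133 FPKM and at 161, 166 and 147 FPKM (adjusted p = 0.175). Of 11 tested markers 1 fell, and 7 fell without NEC 1, where 33.5% of all genes fell. After TMM scaling or quantile normalization 1 fell, and 0 fell without NEC 2 or without any 1 control. Pericyte markers were at 43.0%, 81.7% and 94.3% (4 of 5 fell, 2 after TMM scaling or without NEC 2, and 1, 0 and 1 without control 1, 2 and 3). Notch3 of that list fell by 0.61 (adjusted p = 0.0104), and Rgs5 overlapped between groups. Rgs5 made up 53.6% of the pericyte control sum, and without Rgs5 the pericyte sum was at 38.0%, 61.5% and 67.5% of the control mean. In NEC 2 and 3, the fibrillar sum of 43.0% and 48.1% was below the smooth muscle and pericyte sums of the same libraries. The part of these cells in the collagen results was not tested.

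Blood vessel markers were at 79.2%, 95.3% and 96.6% of the control mean in NEC 1, 2 and 3, and 5 of 10 fell and 1 rose (1 and 2 after TMM scaling). Without control 1, 2 and 3, 2, 0 and 1 fell, and without NEC 2, 3 fell. The marker that rose, Plvap, made up 30.1% of the control sum. Without Plvap the sum was at 60.9%, 74.6% and 80.8% of the control mean in NEC 1, 2 and 3, with the controls at 97.1% to 103%. Pecam1 was at 3.16, 4.48 and 4.97 FPKM in NEC and at 7.50, 8.61 and 7.82 FPKM in control (adjusted p = 0.0126), and Cdh5 fell by 0.48 (adjusted p = 0.0170). Lymphatic markers were at 77.8% to 126%, with Prox1 lower (log2 change −0.57, adjusted p = 0.0373) and Lyve1 not passing (log2 change 0.33). Prox1 missed the threshold with a pseudocount of 0.1, with no filter, after TMM scaling or quantile normalization, with the replicate block, without NEC 2 and without any 1 control. After TMM scaling 1 of 5 tested lymphatic markers was higher, and after quantile normalization 2 were, against 16.7% and 13.9% of all genes. Sums were below every control for interstitial cells of Cajal (33.1% to 52.3%) and mesothelium (28.3% to 54.1%). Most of the mesothelial sum was Krt19, a keratin that is also in the epithelial list, at 37.1, 44.8 and 67.6 FPKM in NEC and at 129, 117 and 143 FPKM in control (log2 change −1.40, adjusted p = 0.00822). Without Krt19 the mesothelial sum was at 23.9%, 42.1% and 79.7% of the control mean. Of the defining genes, Sox10 (glia) was below the minimum, Elavl4 (neurons), Kit and Ano1 (Cajal cells) and Upk3b (mesothelium) fell, and Msln did not pass. Elavl4 reached the minimum through the controls only, and Elavl4, Ano1 and Upk3b missed the threshold without NEC 2, control 1 or control 2. Red blood cell markers were at 33.0% to 35.7% of the control mean, with Hba-a1 lower and Hba-a2 overlapping, a pair whose copies share sequence.

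Epithelial markers were at 124%, 105% and 103% of the control mean in NEC 1, 2 and 3, and immune markers at 83.2%, 89.8% and 88.6%. Of the 8 epithelial markers 1, Vil1, rose and 1, Krt19, fell. Vil1 was at 278, 288 and 274 FPKM in NEC and at 156, 167 and 175 FPKM in control (log2 change 0.75, adjusted p = 0.00548). In every NEC library Krt8 was above and Cdx2 below all controls, but neither passed (adjusted p = 0.0647 and 0.160). After TMM scaling 2 epithelial markers rose and 1 fell, against 16.7% and 14.2% of all genes. Epcam was at 206 to 247 FPKM in NEC and 247 to 251 FPKM in control, and Cdh1 at 100.2 to 113 and at 108 FPKM in every control, so neither separated the groups. Of the 7 immune markers 3 fell, against 30.6% of all tested genes: Coro1a (adjusted p = 0.00903), Laptm5 (0.0215) and Adgre1 (0.0183). After TMM scaling 2 fell and 1 rose, after quantile normalization 1 fell, and without control 1, 2 and 3 it was 1, 1 and 4. Ptprc and Cd52 did not pass (adjusted p = 0.0555 and 0.216). Csf1r, a macrophage receptor, made up most of the immune sum, at 22.3 to 25.3 FPKM in NEC and at 19.4 to 22.4 FPKM in control, and did not pass (adjusted p = 0.153). Without Csf1r the immune sum was at 57.0%, 54.9% and 56.0% of the control mean. Of markers of tissue outside the bowel wall, the cartilage sum was at 2.67 to 3.78 FPKM in NEC and 11.2 to 11.8 FPKM in control, with Matn1 and Matn3 at 0 in all libraries. Sox9, which gut epithelium also expresses, made up 66.7% of the control sum, and Hapln1 most of the rest. Of the pancreas list, Prss1 was at 0 in all libraries and Cpa1 at most 0.0645 FPKM. Ctrb1, a chymotrypsinogen and the 1 tested gene of that list, was at 10.8, 4.45 and 1.34 FPKM in NEC and at 0.292, 0.150 and 0 FPKM in control (log2 change 2.22, adjusted p = 0.0220). It reached the minimum through NEC only, and missed the threshold without NEC 2 or any 1 control. Of the skeletal muscle list, Acta1 was at 27.8, 15.4 and 9.00 FPKM in NEC and at 0.375, 0.513 and 0.844 FPKM in control, while Ckm was at 0.438 to 3.53 and 2.54 to 3.47 FPKM. Acta1 reached the minimum through NEC only. The share of these cells in the collagen results was not tested.

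**Figure D5:**
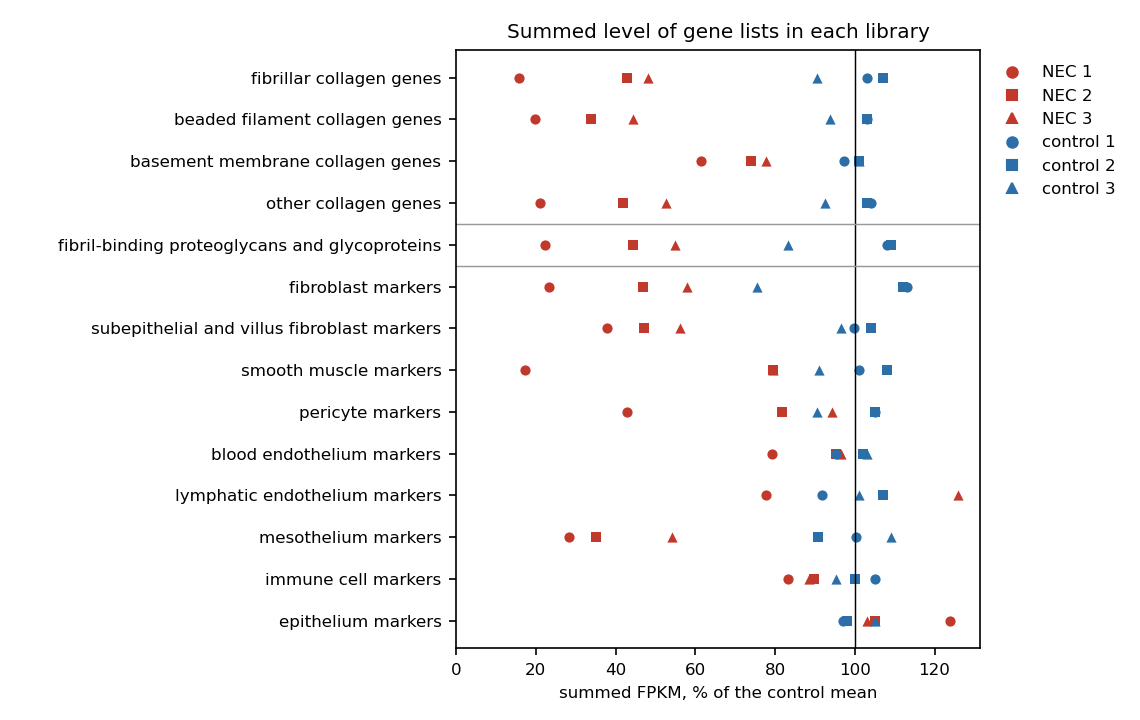
Summed FPKM of gene lists in each library, as % of the mean of the 3 controls (vertical line at 100%). Fibrillar and beaded filament collagens, fibril-binding genes and fibroblast markers are lowest in NEC 1 and lie below all controls in the other NEC libraries. Smooth muscle markers are at 17.3% in NEC 1 and at 79.4% and 79.6% in NEC 2 and 3, and epithelial markers at 103% to 124%.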

How the data were processed

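RNA of 3 NEC and 3 control libraries was compared. The deposited table has 1 value per gene and library and does not name a unit. It was taken as FPKM computed by the authors, because the submitters' processing notes list Cuffdiff (with HISAT2, SAMtools 1.3.1 and mm10), whose output is FPKM, and because low values fall on steps of 1 fragment: 98.5% to 99.1% of those used were whole within 0.05. Columns beginning with N were taken as NEC. Per the labels' protocols, RNA of integrity above 7 went into TruSeq paired-end libraries. The annotation and strand setting are not given in the sources used here. GENCODE mouse release M21 gave symbols and coordinates for 55141 of the 55487 identifiers.

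The test was limma 3.58.1 (R 4.3.3) on log2(FPKM + 1), with a mean-variance trend and group as the only term, for the 15806 genes that averaged 1 FPKM or more. A gene was called where its Benjamini-Hochberg adjusted p, over all genes tested, was under 0.05. The log2 changes of low genes are understated on this scale. The alternatives were a pseudocount of 0.1, no filter, a filter at a mean of 5 FPKM, TMM scaling (unweighted, with 30% of log ratios and 5% of levels trimmed), quantile normalization, a block for the replicate number, no trend, and leaving out each library, where the variance of the pair left was pooled with that of the other group. The fit was tested on simulated data. The members and all lists were chosen with earlier results of these data known. All collagen genes are named. Of each companion list, the 4 genes of smallest p and those called against most of the list are named, and of each marker list the first 2, with a few markers added after their values had been seen, except that some results on the glia and neuron lists are not reported here. Of the listed genes, Ctage5 was not found, and Ctgf stands in the table as Ccn2. All columns of values were used. The figures used matplotlib 3.10.9 and Python 3.11.15.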

Additional observations from a re-analysis of the deposited data

How the results depend on the processing

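Leaving out control 1, 2 or 3 left 9, 9 and 10 collagen genes lower, against 22. Lowest and highest counts over the 6 libraries left out were 471 and 1566 genes higher and 917 and 5378 lower, 9 and 23 collagen genes lower, 1 and 8 fibrillar, 4 and 5 beaded filament, 1 and 4 basement membrane and 3 and 6 other collagen genes lower. For the companion lists, changed genes in either direction numbered 4 and 22 for assembly, 8 and 13 for breakdown, 4 and 10 for receptors, 1 and 21 for fibril-binding, 3 and 13 for basement membrane partners and 3 and 11 for regulators. TMM scaling gave 2638 genes higher and 2252 lower, 1 collagen gene higher (1 of the basement membrane group, which had 1 lower), 5 receptors, 7 basement membrane partners and 6 regulators changed. Quantile normalization gave 2202 genes higher and 2387 lower, and 2 collagen genes higher, 1 of the basement membrane and 1 of the other group. With no filter, where more genes of low value share the adjustment, 4 fibrillar and 9 other collagen genes were lower, and 10 fibril-binding genes and 5 regulators changed. All collagens lower then numbered 23 of 44, of which 16 were among the 22. With a mean of at least 5 FPKM, which tests fewer genes, 1746 genes, 5 fibrillar and 2 other collagen genes were lower, and 9 assembly, 7 breakdown and 5 receptor genes and 4 regulators changed. Cuffdiff values with no counts leave the precision of single low values unknown.

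The replicate numbers do not pair the libraries by any label, and deviations of same-numbered libraries correlated at −0.05, −0.01 and −0.07. With the replicate number as a block, 19 collagen genes were lower and 5 regulators changed. Signs turned for the log2 ratio of Col6a3 to Col6a1, which ran from −0.11 to 0.32 over the libraries left out, for Col13a1 (0.19 after TMM scaling and 0.35 after quantile normalization, and −0.08 to 0.05 over the libraries left out) and for Col20a1 (0.18 and 0.32, and −0.09 to 0.04). The cause of these changes was not tested. Of the 22 collagen genes lower in NEC, none changed sign in any of the 13 alternatives that tested it. Directions also held for the other 5 chain ratios and for the named companion genes.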
